A study of Mus musculus with 2 samples.

Results

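The 9 genes described here are connective tissue mast cell genes, named as a list and looked up by gene symbol among the 23930 amplicon targets of the deposited table. All 9 had a target: Tpsb2, Cma1, Mcpt4, Kit, Cpa3, Hdc, Tpsab1, Ms4a2 and Fcer1a. They were followed in library 1 and library 2, the 2 RNA libraries of the series. Both came from wildtype mouse pups at postnatal day 3, from suture tissue of the skull that combined the lambdoid, sagittal and coronal sutures, and both carry batch number 1. No treatment, allele, strain or injury is given in the labels, so there is 1 group and no control, and whether a library came from 1 pup or from a pool is not stated. The cell type is labelled as suture stem cells, whereas the extraction protocol describes whole tissue with no sort. Of the osteoblast markers, 7 of 7 stood at 10 CPM or more in both libraries, as did 8 of 8 skeletal muscle markers. Library 1 held 5663344 reads and library 2 held 15802610.

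Mast cells are resident immune cells that settle in connective tissue around vessels, in skin, in periosteum and in the dura mater under the skull. They store histamine and serine proteases in granules bound to heparin, and they release them when antigen crosslinks IgE on the high-affinity IgE receptor. Their growth and survival depend on the receptor tyrosine kinase Kit and its ligand, stem cell factor. In the mouse, mast cells of connective tissue carry the chymases encoded by Cma1 and Mcpt4, tryptases and carboxypeptidase A3, and mucosal mast cells are known for the chymases encoded by Mcpt1 and Mcpt2. GATA2 and MITF are transcription factors known to act in this lineage. The panel used here reads 1 short amplicon of a gene, made by its own primer pair, so CPM (counts per 1000000 reads of the library) does not grow with gene length, and each amplicon has its own efficiency. Levels of different genes therefore compare reads of their amplicons. In bulk tissue, fewer mast cells and less RNA per mast cell cannot be told apart.

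Promoter sequences are shown for 4 members with different levels, so that the values can be read beside them: Cma1 and Mcpt4, the chymases, Cpa3, the carboxypeptidase, and Ms4a2, an IgE receptor subunit with almost no reads. Each is the 250 bases before the annotated start, from RefSeq on GRCm38.p6, in the direction of the gene, and all 4 genes lie on the minus strand. Capitals mark the hexamers AGATAA and TGATAA, forms that a GATA site can take, on either strand. Other forms of that site were not searched. The windows are chr14:55944676-55944925 for Cma1, chr14:56062311-56062560 for Mcpt4, chr3:20242182-20242431 for Cpa3 and chr19:11623720-11623969 for Ms4a2.
Cma1: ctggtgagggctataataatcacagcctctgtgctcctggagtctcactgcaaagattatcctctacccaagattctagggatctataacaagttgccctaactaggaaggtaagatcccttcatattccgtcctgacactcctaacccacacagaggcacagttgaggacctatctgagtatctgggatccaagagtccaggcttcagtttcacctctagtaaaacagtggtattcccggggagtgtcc
Mcpt4: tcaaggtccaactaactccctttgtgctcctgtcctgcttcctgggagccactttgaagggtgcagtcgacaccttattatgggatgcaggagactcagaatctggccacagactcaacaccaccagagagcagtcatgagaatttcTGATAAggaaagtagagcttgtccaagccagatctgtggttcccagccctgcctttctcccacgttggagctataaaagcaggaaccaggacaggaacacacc
Cpa3: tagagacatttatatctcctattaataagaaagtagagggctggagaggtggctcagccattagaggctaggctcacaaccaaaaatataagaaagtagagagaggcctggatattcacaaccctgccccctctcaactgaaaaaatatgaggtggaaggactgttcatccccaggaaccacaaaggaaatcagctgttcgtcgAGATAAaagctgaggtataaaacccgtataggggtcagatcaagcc
Ms4a2: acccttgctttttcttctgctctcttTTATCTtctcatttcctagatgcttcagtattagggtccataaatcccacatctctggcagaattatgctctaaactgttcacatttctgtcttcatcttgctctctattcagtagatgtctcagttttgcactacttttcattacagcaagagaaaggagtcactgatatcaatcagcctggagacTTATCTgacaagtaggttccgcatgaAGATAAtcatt

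RefSeq promoters were matched for 7 of the members, and Tpsb2 and Tpsab1 are named only. A GATA hexamer stood in the window of 4 of these 7 genes, against 16.6% of all 32851 windows of the same length. Cpa3 held AGATAA, starting 46 bases before the start. Mcpt4 held TGATAA at 103 bases. Ms4a2 held 3 matches and Fcer1a held 1. Cma1, Kit and Hdc held neither hexamer. The E-box hexamers CATGTG and CACGTG, of the kind MITF binds, were found on either strand in 1 of the 7 genes, Fcer1a, against 17.6% of all windows. GATA and E-box matches did not overlap. The windows with matches thus included genes at more than 8 CPM in both libraries (Mcpt4, Cpa3) and genes with almost no reads (Ms4a2, Fcer1a). Cma1, the second highest member, had no match to the hexamers searched.

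Mast cell genes were read at moderate levels in both libraries, led by the granule proteases. Of the 9 members, 6 reached 1 CPM in both libraries (66.7%, against 55.0% of all targets), and 4 reached 10 CPM in both. The median member stood at 10.1 CPM, against 3.29 CPM for all targets. Summed over the members, library 1 held 191 CPM and library 2 held 126 CPM. The members that fell short of 1 CPM were the tryptase gene Tpsab1 and both IgE receptor subunits on the list, Ms4a2 and Fcer1a.

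**Figure D1:**
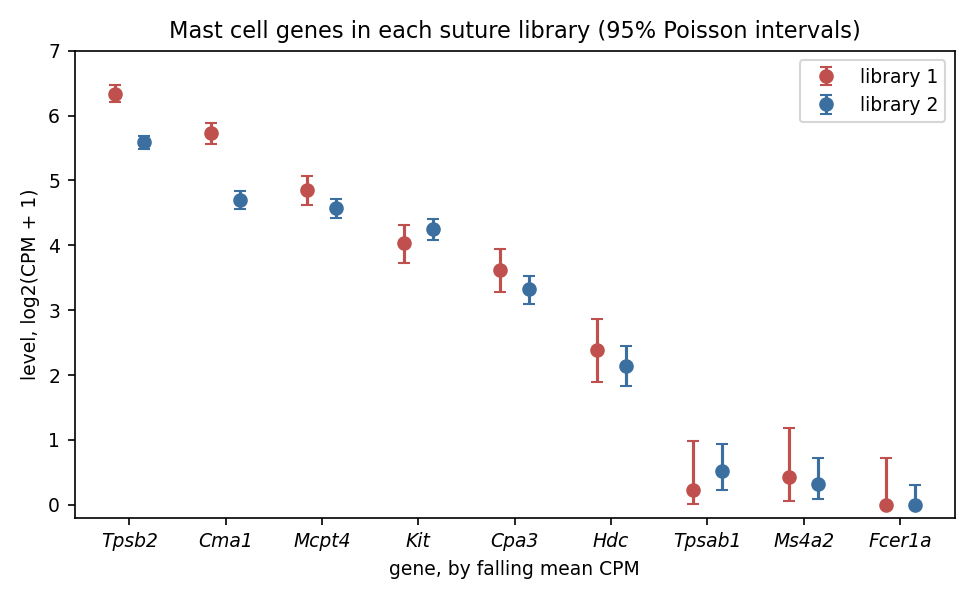
Levels of the 9 mast cell genes as log2(CPM + 1), with library 1 in red and library 2 in blue, and exact 95% Poisson intervals of the reads as bars. The first 6 genes stand in the same order in both libraries, and Tpsab1, Ms4a2 and Fcer1a lie near 0.

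Among the proteases, Tpsb2, which encodes the tryptase mMCP-6, was the highest member. It stood at 80.0 CPM in library 1 (453 reads, 95% Poisson interval 72.8 to 87.7) and 47.1 CPM in library 2 (745 reads, 43.8 to 50.7). It was above 91.1% of all targets in library 1 and above 84.5% in library 2. Tpsab1, which encodes the second tryptase, mMCP-7, stood at 0.177 CPM in library 1 (1 read) and 0.443 CPM in library 2 (7 reads). In library 1 this is below the 3 reads, or 0.530 CPM, that a count of 0 allows, and in library 2 it is above the corresponding 0.190 CPM. Tpsb2 reads outnumbered Tpsab1 reads 453 to 1 in library 1 (exact 95% interval 80.9 to 17932) and 106 to 1 in library 2 (51.4 to 266). RefSeq lists Tpsab1 in the GRCm38.p6 reference, made from C57BL/6J mice, as a transcribed pseudogene, whereas GENCODE M21 lists it as protein-coding. The strain of the pups is not given in the labels.

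The chymases followed. Cma1, which encodes mMCP-5, stood at 52.1 CPM in library 1 (295 reads, 46.3 to 58.4) and 24.996 CPM in library 2 (395 reads, 22.6 to 27.6). Mcpt4, which encodes mMCP-4, the mouse chymase closest in function to that of humans, stood at 27.9 CPM in library 1 (158 reads, 23.7 to 32.6) and 22.8 CPM in library 2 (360 reads, 20.49 to 25.3). Cma1 was thus about level with Mcpt4 in library 2 and well above it in library 1. Cpa3, which encodes mast cell carboxypeptidase A3, an exopeptidase stored with the chymase mMCP-5, stood at 11.3 CPM in library 1 (64 reads, 8.70 to 14.4) and 8.99 CPM in library 2 (142 reads, 7.57 to 10.6).

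Hdc encodes histidine decarboxylase, the enzyme that makes histamine. It stood at 4.24 CPM in library 1 (24 reads, 2.72 to 6.31) and 3.42 CPM in library 2 (54 reads, 2.57 to 4.46), close to the middle of all targets, with 53.6% of targets below it in library 1 and 50.04% in library 2. Kit, the receptor for stem cell factor, stood at 15.4 CPM in library 1 (87 reads, 12.3 to 18.9) and 18.0 CPM in library 2 (285 reads, 16.0 to 20.3). It was the only member at 1 CPM or more in both libraries whose value was lower in library 1.

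The IgE receptor presented a split between its subunits. Fcer1a, the chain that binds IgE, had 0 reads in both libraries, which allows up to 0.530 CPM in library 1 against 0.190 CPM in library 2. Of all targets, 16.4% had 0 reads in both libraries, and whether the Fcer1a amplicon yields reads where the gene is expressed was not tested. Ms4a2, the beta chain, stood at 0.353 CPM in library 1 (2 reads) and 0.253 CPM in library 2 (4 reads). Fcer1g, the gamma chain, which macrophages and other immune cells share with their own Fc receptors, stood at 78.0 CPM in library 1 and 60.1 CPM in library 2. Fcer1g reads outnumbered Ms4a2 reads 221 to 1 in library 1 (interval 60.8 to 1831) and 237 to 1 in library 2 (interval 92.4 to 873). Macrophage markers summed to 603 CPM in library 1 against 440 CPM in library 2, with 6 of 8 at 1 CPM or more in both. The widest gap in CPM was that of Lyz2, at 308 CPM in library 1 and 157 CPM in library 2. Csf1r went the other way, at 68.0 CPM in library 1 and 93.8 CPM in library 2. Of the 8 markers, 5 were higher in library 1 and 3 in library 2. The part of macrophages in the Fcer1g level was not tested.

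Ordered by mean, the members were Tpsb2 at 63.6 CPM ± 23.2, Cma1 at 38.5 CPM ± 19.2, Mcpt4 at 25.3 CPM ± 3.62, Kit at 16.7 CPM ± 1.89, Cpa3 at 10.1 CPM ± 1.64 and Hdc at 3.83 CPM ± 0.581 (SD, n = 2 for each). Tpsab1 followed at 0.310 CPM ± 0.188 and Ms4a2 at 0.303 CPM ± 0.0707 (SD, n = 2 for each), and Fcer1a was at 0. The values of Tpsb2 and Cma1 overlapped between the libraries, as did those of Cma1 and Mcpt4, and those of Tpsab1 and Ms4a2. The steps from Mcpt4 to Kit, from Kit to Cpa3, from Cpa3 to Hdc and from Hdc to Tpsab1 were larger than the spread, since the lower library of the higher gene exceeded the higher library of the lower gene. The first 6 members had the same order in library 1 and library 2.

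The members share positions that their choice did not use. Cma1 (ENSMUSG00000022225.7, chromosome 14 from 55941451 to 55944675 on GRCm38, which mm10 is built on) and Mcpt4 (ENSMUSG00000061068.7, 56059629 to 56062313) lie 115 kb apart in the cluster of chymase and granzyme genes. Tpsab1 (ENSMUSG00000024173.11, chromosome 17 from 25343245 to 25345562) and Tpsb2 (ENSMUSG00000033825.10, 25366305 to 25369098) lie 20.7 kb apart in the tryptase cluster. The other members lie elsewhere, with Cpa3, whose span holds the unmeasured microRNA gene Mir7007 on the same strand, on chromosome 3 from 20215620 to 20242181, Kit on 5 from 75574916 to 75656722, Hdc on 2 from 126593667 to 126619299, Fcer1a on 1 from 173221284 to 173227214 and Ms4a2 on 19 from 11615523 to 11623719. Where in each gene its amplicon lies was not analysed here.

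**Figure D2:**
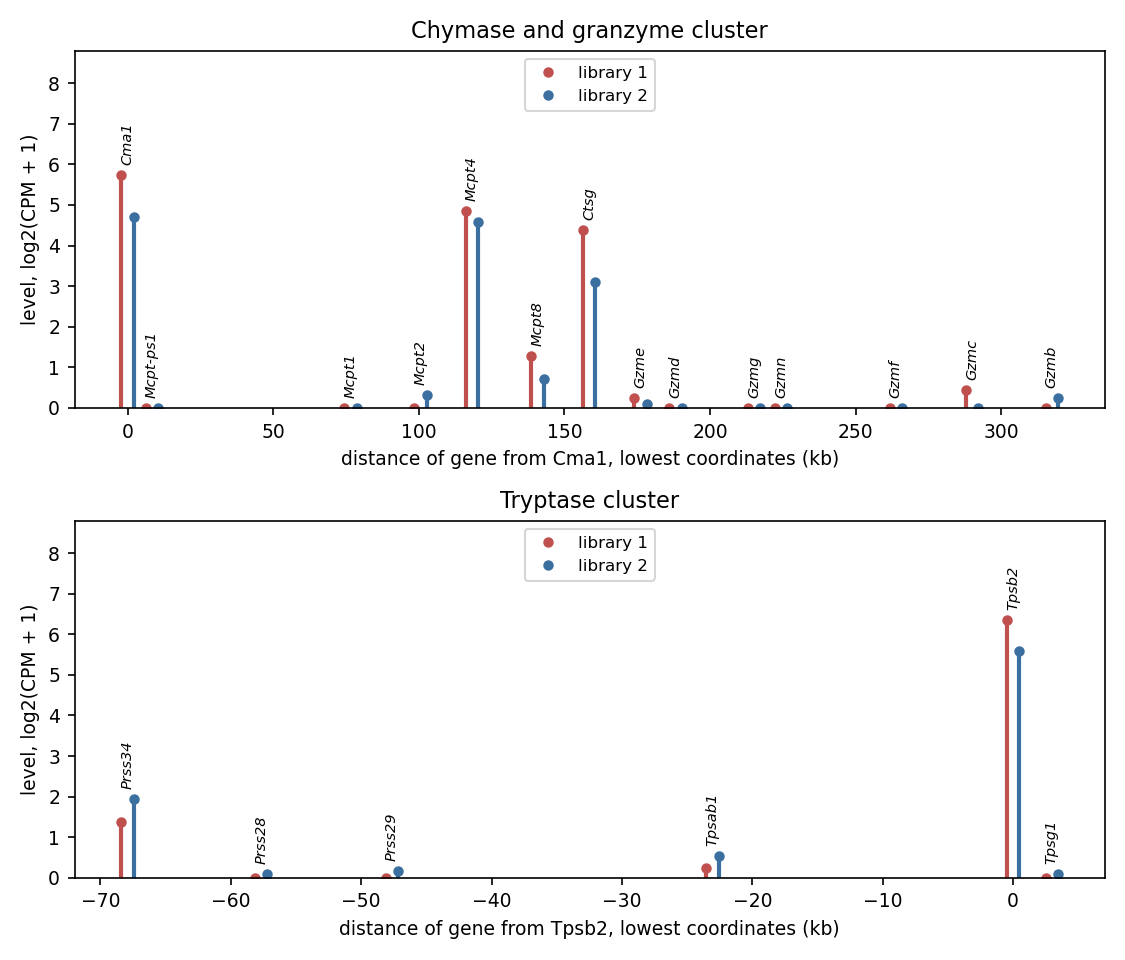
Levels as log2(CPM + 1) of every measured gene in the chymase and granzyme cluster on chromosome 14 and in the tryptase cluster on chromosome 17, against distance in kb, with library 1 in red and library 2 in blue. Cma1, Mcpt4 and Ctsg are the highest in the upper panel and Tpsb2 in the lower one, Mcpt8 and Prss34 are lower, and the other genes lie near 0.

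Within these clusters, few of the measured genes had more than a handful of reads. From Cma1 to Gzmb, over 321 kb, 14 of 16 annotated genes were measured, and 3 of them reached 1 CPM in both libraries: Cma1, Mcpt4 and Ctsg. Ctsg, which encodes cathepsin G, a protease of neutrophil precursors that some mast cells also make, stood at 20.0 CPM in library 1 and 7.66 CPM in library 2, a difference of 1.28 on the log2(CPM + 1) scale (adjusted p = 9.19e-12 in the exact binomial test described with the library comparison). It was the 1 gene called among the 5 measured genes of the list of other mast cell proteases, and 17.1% of all targets were called in that direction. Neutrophil markers summed to 1062 CPM in library 1 against 572 CPM in library 2, with 6 of 7 at 1 CPM or more in both. Of the 7 markers, 6 were higher in library 1. The exception was Ltf, whose level of 234.8 CPM in library 2 exceeded its 99.4 CPM in library 1. The part of neutrophils in the Ctsg level was not tested. The mucosal chymase gene Mcpt1, between the members, had 0 reads in both libraries, and its neighbour Mcpt2 had 0 reads in library 1 and 4 reads in library 2, or 0.253 CPM. The granzyme genes at the other end had at most 3 reads in a library, and Gzmb had 0 reads in library 1 and 3 in library 2. In the tryptase cluster, all 6 genes from Prss34 to Tpsg1 were measured, and besides Tpsb2 only Prss34 reached 1 CPM in both libraries. Tpsg1, which encodes a membrane-anchored tryptase and lies next to Tpsb2, had 0 reads in library 1 and 1 in library 2.

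Paralogs in these clusters resemble each other, so their reads are uncertain where an amplicon falls in a shared stretch. Tpsb2 and Tpsab1 transcripts were 76.3% identical over 824 aligned bases, with a longest exact shared run of 39 bases. For Cma1 and Mcpt4 the identity was 67.9% over 736 bases, with a longest run of 27 bases. Mcpt4 was closer to the mucosal chymase genes, at 85.8% identity to Mcpt1 and 80.1% to Mcpt2. Whether reads of 1 paralog were counted for another was not tested.

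The libraries were then set against each other, as replicates of 1 group with 1 library on each side. On the log2(CPM + 1) scale, which understates changes of genes near 1 CPM, the members differed by a median of 0.25 (library 1 minus library 2), against 0 for all targets. Among the 6 members at 1 CPM or more in both libraries, 5 were higher in library 1 and 1, Kit, was lower. A difference of 1 or more, taken as past the fold, was met by 1 of 9 members in the direction of library 1 and by 0 of 9 in the direction of library 2. Over all targets, 4.64% were past the fold toward library 1 and 7.12% toward library 2. Among targets whose mean reached 10 CPM, 5 members included, those shares were 7.27% toward library 1 and 7.89% toward library 2. A count of 1 gene does not set the list apart from that background. An exact two-sided binomial test on the recovered reads compares these 2 libraries, not conditions, and covers counting error only. With Benjamini-Hochberg adjustment over all targets it called 2 members higher in library 1, Cma1 and Tpsb2, and 0 higher in library 2. The same test called 17.1% of all targets toward library 1 and 20.0% toward library 2, and, among targets whose mean reached 10 CPM, 32.5% toward library 1 and 37.0% toward library 2, so a share of 2 in 9 is near the background.

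**Figure D3:**
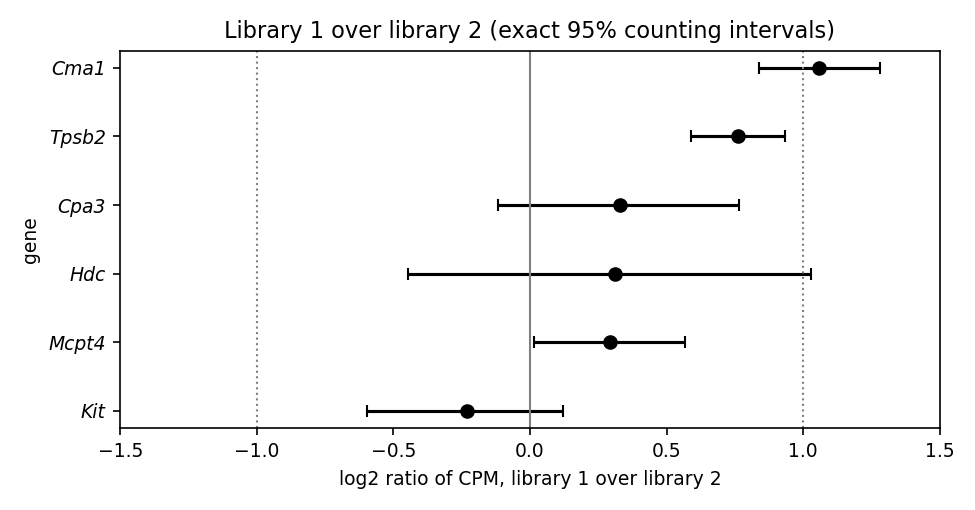
Log2 ratio of CPM, library 1 over library 2, for the 6 mast cell genes at 1 CPM or more in both libraries, with exact 95% counting intervals as bars and dotted lines at a 2-fold difference. Cma1 and Tpsb2 lie well to the right of 0, and Kit is the gene to the left of it.

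Cma1 had the widest gap, at 1.03 on the log2(CPM + 1) scale. Its CPM was 2.08-fold higher in library 1 (exact 95% interval 1.79 to 2.43, adjusted p = 2.73e-19 in the exact binomial test). Tpsb2 differed by 0.75, and its CPM was 1.70-fold higher in library 1 (1.51 to 1.91), with adjusted p = 7.35e-17 in the exact binomial test. Mcpt4 had a difference of 0.28 and a ratio of 1.22 (interval 1.01 to 1.48), with adjusted p = 0.0912 in the exact binomial test and 0.0497 when the libraries were scaled by the median of their ratios. Cpa3 had a ratio of 1.26 (interval 0.921 to 1.70) and Hdc of 1.24 (interval 0.733 to 2.04), and neither was called. Kit had a ratio of 0.852 (interval 0.662 to 1.09) and was not called either. The depth of library 1 left intervals of these genes that include both equal levels and differences of 1.5-fold for Cpa3 and Hdc.

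The make-up of the mast cell reads was compared next, since shares within a library do not depend on how that library was scaled. The 9 genes had 1084 reads in library 1 and 1992 in library 2. Tpsb2 took 41.8% of them in library 1 (exact Clopper-Pearson 95% interval 38.8 to 44.8) and 37.4% in library 2 (35.3 to 39.6). Cma1 took 27.2% in library 1 (24.6 to 30.0) and 19.8% in library 2 (18.1 to 21.6). Kit took 8.03% in library 1 (6.48 to 9.81) and 14.3% in library 2 (12.8 to 15.9). The intervals of Cma1 and of Kit did not overlap between the libraries, and those of Tpsb2 did. Shares within a library are not independent, since a larger share of 1 gene leaves less for the others. The CPM of Kit itself was not called between the libraries (ratio 0.852, interval 0.662 to 1.09). Mcpt4 took 14.6% in library 1 and 18.1% in library 2, Cpa3 took 5.90% in library 1 and 7.13% in library 2, and Hdc took 2.21% in library 1 and 2.71% in library 2, all with overlapping intervals.

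**Figure D4:**
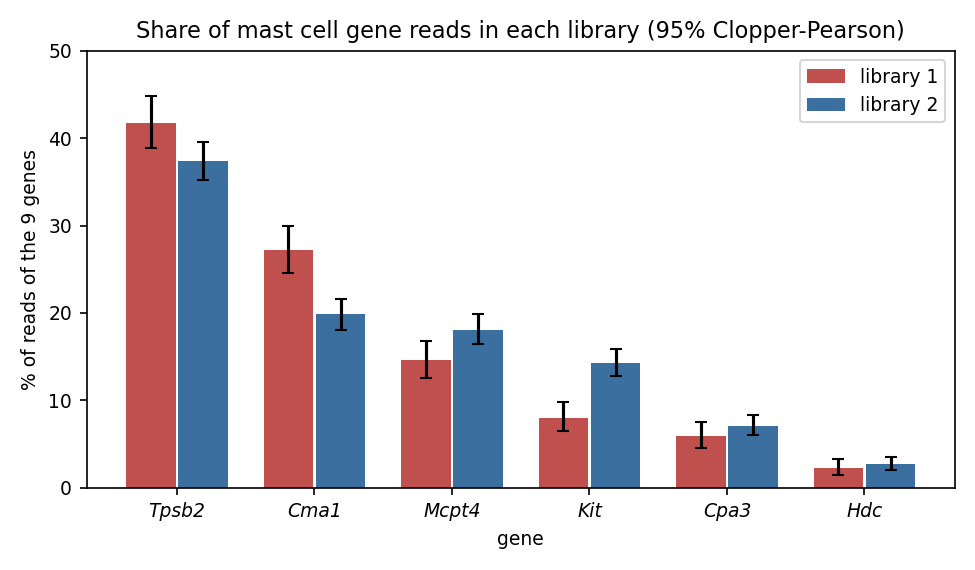
Share of the reads of all 9 mast cell genes taken by each of the 6 genes at 1 CPM or more in both libraries, in percent, with library 1 in red, library 2 in blue and exact Clopper-Pearson 95% intervals. Cma1 takes more of the reads in library 1 (27.2% against 19.8%) and Kit takes less (8.03% against 14.3%).

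Ratios of some pairs of members had intervals that overlapped between the libraries, and those of others did not. Mcpt4 reads stood to Cpa3 reads as 2.47 to 1 in library 1 (interval 1.84 to 3.35) and 2.54 to 1 in library 2 (2.08 to 3.10). Cpa3 stood to Hdc as 2.67 to 1 in library 1 (1.64 to 4.46) and 2.63 to 1 in library 2 (1.91 to 3.67). The intervals of both ratios overlapped between the libraries, as did those of Tpsb2 to Cma1 and of Cpa3 to Kit. Overlap does not show that a ratio stayed the same. Cma1 stood to Mcpt4 as 1.87 to 1 in library 1 (1.53 to 2.28) and 1.10 to 1 in library 2 (0.949 to 1.27), and to Cpa3 as 4.61 to 1 in library 1 (3.51 to 6.14) and 2.78 to 1 in library 2 (2.29 to 3.39). Tpsb2 stood to Kit as 5.21 to 1 in library 1 (4.13 to 6.63) and 2.61 to 1 in library 2 (2.28 to 3.01). The intervals of these last 3 ratios did not overlap between the libraries. Nor did those of Tpsb2 to Mcpt4, at 2.87 to 1 in library 1 (2.39 to 3.46) and 2.07 to 1 in library 2 (1.82 to 2.35). All these intervals cover counting error only, and the spread between further libraries is not known.

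Kit is also used by melanocytes and blood progenitors, whose markers were read beside it. Melanocyte markers summed to 3.00 CPM in library 1 against 3.61 CPM in library 2, and 1 of 5, Pmel, reached 1 CPM in both, at 1.59 CPM in library 1 and 2.66 CPM in library 2. Of the defining melanocyte enzymes, Tyr had 0 reads in library 1 and 1 in library 2, Tyrp1 had 3 in library 1 and 11 in library 2 and was not called, and Dct had 5 in library 1 and 2 in library 2 and was called higher in library 1. Blood progenitor markers summed to 212 CPM in library 1 against 100 CPM in library 2, and 4 of 5 reached 1 CPM in both. Most of that sum was Cd34, which vessels also express, at 188 CPM in library 1 and 68.9 CPM in library 2. Hlf stood at 7.95 CPM in library 1 and 20.4 CPM in library 2, and Procr at 12.7 CPM in library 1 against 7.85 CPM in library 2. The part of these cells in the Kit level was not tested. Kitl, which encodes stem cell factor, stood at 10.1 CPM in library 1 and 4.999 CPM in library 2, a difference of 0.88 (adjusted p = 3.62e-04 in the exact binomial test).

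Other genes of mast cell function were followed in lists of their own. The granule and mediator list held 9 genes, of which 8 reached 1 CPM in both libraries and 3 were called higher in library 1 and 0 in library 2. For these lists too, the shares of all targets called were 17.1% toward library 1 and 20.0% toward library 2, and 32.5% toward library 1 and 37.0% toward library 2 among targets whose mean reached 10 CPM. Srgn, the serglycin core protein that packs granule proteases, stood at 30.9 CPM in library 1 and 22.8 CPM in library 2. Ndst2, the sulfotransferase of mast cell heparin, stood at 48.2 CPM in library 1 and 34.3 CPM in library 2. Alox5ap, which presents arachidonic acid to 5-lipoxygenase, stood at 21.0 CPM in library 1 and 13.4 CPM in library 2. These were the called genes, and all 3 are used by other cells too. Hpgds, the haematopoietic prostaglandin D synthase, stood at 4.59 CPM in library 1 and 4.37 CPM in library 2, and Ltc4s, the leukotriene C4 synthase, at 4.06 CPM in library 1 and 3.73 CPM in library 2. Alox5, the lipoxygenase itself, stood at 3.36 CPM in library 1 and 3.54 CPM in library 2, Ptgs1, a cyclooxygenase, at 19.8 CPM in library 1 and 20.8 CPM in library 2, and Slc18a2, the transporter that loads histamine and serotonin into granules, at 1.41 CPM in library 1 and 1.39 CPM in library 2. Tph1, an enzyme of serotonin synthesis, had 1 read in library 1 and 3 in library 2.

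Receptor and signalling genes were present in 7 of 9 cases at 1 CPM in both libraries, and 4 were called higher in library 1 and 0 in library 2, beside 17.1% and 20.0% of all targets. Mrgprb2, the receptor through which connective tissue mast cells of the mouse answer basic peptides, had 14 reads in each library, or 2.47 CPM in library 1 and 0.886 CPM in library 2. Its neighbour in the family, Mrgprb1, stood at 1.77 CPM in library 1 and 0.886 CPM in library 2. Il1rl1, the receptor for interleukin 33, stood at 2.65 CPM in library 1 and 1.20 CPM in library 2. Il33 itself stood at 9.89 CPM in library 1 and 9.11 CPM in library 2. Of the kinases below the IgE receptor, Lyn stood at 13.4 CPM in library 1 and 4.999 CPM in library 2, Syk at 29.0 CPM in library 1 and 20.8 CPM in library 2, and Btk at 3.00 CPM in library 1 and 2.41 CPM in library 2. Of the adaptors, Lat stood at 1.94 CPM in library 1 and 3.54 CPM in library 2, and Lat2 at 8.12 CPM in library 1 and 10.7 CPM in library 2. Lyn, Syk, Fcer1g and Mrgprb2 were the genes called.

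All 6 transcription factor genes reached 1 CPM in both libraries, with 3 called higher in library 1 and 1 in library 2, beside 17.1% and 20.0% of all targets. Gata2, a GATA factor of mast cells, stood at 14.8 CPM in library 1 and 9.37 CPM in library 2. It was called in the exact binomial test (adjusted p = 0.00355), and the part of other cells in its level was not tested. Mitf, a factor that osteoclasts and melanocytes also use, stood at 6.004 CPM in library 1 and 3.61 CPM in library 2. Gata1, at 24.7 CPM in library 1 and 8.99 CPM in library 2, and Tal1, at 11.7 CPM in library 1 and 7.97 CPM in library 2, are also factors of red cells. Erythroid markers summed to 1488 CPM in library 1 against 1259 CPM in library 2, with 5 of 5 at 1 CPM or more in both, and their part in these levels was not tested. Stat5a and Stat5b, which act below Kit and cytokine receptors, stood at 12.007 and 50.1 CPM in library 1 and at 15.7 and 64.1 CPM in library 2, and Stat5b was the factor called higher in library 2. The mast cell cytokine genes Il3, Il4 and Il9 had 0 reads in both libraries.

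Basophils share Cpa3, Hdc and the IgE receptor with mast cells. They were read through 3 markers that summed to 4.06 CPM in library 1 against 3.797 CPM in library 2. Mcpt8, a basophil protease despite its name, stood at 1.41 CPM in library 1 and 0.633 CPM in library 2. Prss34, a protease of basophils and some mast cells, stood at 1.59 CPM in library 1 and 2.85 CPM in library 2. Cd200r3 had 6 reads in library 1 and 5 in library 2. None of the 3 was called between the libraries, beside 17.1% of all targets called toward library 1 and 20.0% toward library 2. Beside their sum, Cpa3 stood at 11.3 CPM in library 1 and 8.99 CPM in library 2, and Hdc at 4.24 CPM in library 1 against 3.42 CPM in library 2. The part of basophils in the levels of Cpa3 and Hdc was not tested.

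**Figure D5:**
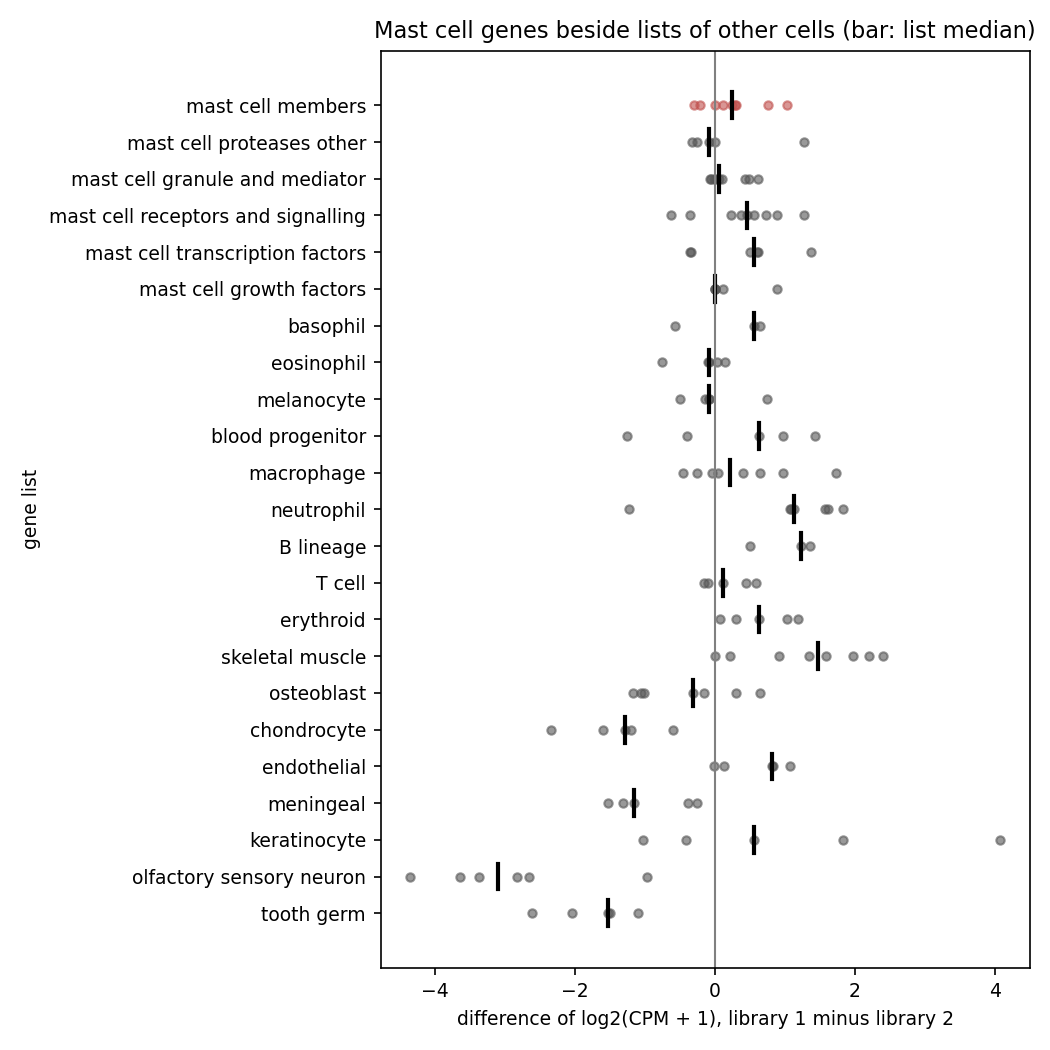
Difference of log2(CPM + 1), library 1 minus library 2, for each measured gene (points) of the mast cell members (red, top) and of 22 other lists (grey), with list medians as black bars. The mast cell median of 0.25 lies between that of neutrophil genes at 1.13 and that of chondrocyte genes at -1.28.

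The libraries also differed in genes of other cells and tissues. Skeletal muscle genes summed to 38440.5 CPM in library 1 against 12237 CPM in library 2 (median difference 1.47), and the median difference was 1.13 for neutrophil, 0.63 for erythroid, 0.81 for endothelial and 0.22 for macrophage genes. Toward library 2, the median difference was -1.28 for chondrocyte, -1.16 for meningeal, -3.10 for olfactory and -1.53 for tooth germ genes. Keratinocyte genes were read for skin, in which connective tissue mast cells also live. They summed to 92.7 CPM in library 1 against 88.3 CPM in library 2, with 3 of 5 at 1 CPM or more in both. That sum alone does not show how much skin a library held, since single genes differed in opposite directions (median difference 0.56). Krt1 stood at 19.1 CPM in library 1 and 0.190 CPM in library 2, and Krt14 at 22.2 and 5.57 CPM. Krt5 stood at 19.8 CPM in library 1 and 41.4 CPM in library 2, and Krt15 at 30.2 and 40.5 CPM. Of the 5 genes, 2 were called higher in library 1 and 2 in library 2, beside 17.1% and 20.0% of all targets. The part of these tissues in the differences of Cma1 and Tpsb2 was not tested.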

How the data were processed

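The authors deposited CPM values, counts of an amplicon target per 1000000 reads of its library, for 23930 targets in 2 libraries made with an Ion AmpliSeq mouse transcriptome panel, per the labels' protocols. Per the submitters' processing notes the build was mm10. The aligner, counter and filters were not given in the sources used here. Dividing each deposited CPM value by the smallest step of its library gave whole reads for 100% of values (tolerance 0.01 read). A total of 27 symbols replaced by dates was restored from target names. Libraries were compared on log2(CPM + 1), with a difference of 1 as the fold, and by their recovered reads in a two-sided exact binomial test (scipy 1.17.1), adjusted by Benjamini-Hochberg over all targets at 0.05 and checked on simulated reads. Those reads were simulated with counting error only, so the check does not cover further spread between libraries. The test called 4084 targets higher in library 1 and 4779 higher in library 2. Its p-values measure counting error between these libraries, whose spread may be partly technical. Without molecular identifiers, all intervals, and limits of 3 reads, cover counting error only. Genes were placed with GENCODE M21 on GRCm38, where all 9 members and 89.3% of targets had their symbol. Promoters are RefSeq's, and transcripts were aligned locally with Biopython 1.88. Named were all members, all genes of the mast cell and basophil lists, and melanocyte and progenitor markers at 1 CPM or more in both libraries, of which 1 is not reported here. The granzymes, Tyr, Tyrp1, Dct, Ltf, Lyz2, Csf1r and the keratinocyte genes Krt1, Krt5, Krt14 and Krt15 were named after their values were seen. For 4 of 130 listed companion genes, Mcpt9 and Cma2 among them, no target was used here. Members and lists were chosen with earlier results of these data known. Alternatives changed the pseudocount, the scaling, the level filter and the library. A planned comparison of the members' protein sequences was not made here, and transcripts were compared in its place.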

Additional observations from a re-analysis of the deposited data

How the results depend on the processing

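With 2 libraries of 1 group, no value has a replicate check against another condition. The 6 members at 1 CPM in both libraries were also 6 at 0.5 CPM, and 6 in each library taken alone. The median difference of the members lay between 0.13 with a pseudocount of 5 CPM and 0.30 when members with a mean under 10 CPM were left out. The count past the fold toward library 1 dropped to 0 with a pseudocount of 5 CPM, where Cma1 differed by 0.93. Scaling by the median of ratios (factor 0.974, library 1 over library 2) changed the median difference to 0.28 and raised the members called in the exact binomial test to 3, adding Mcpt4. No direction of a member's difference changed under these alternatives. Depth limits Tpsab1, Ms4a2 and Fcer1a, which had 7 reads or fewer per library. No paired analysis was possible because there is 1 group.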
